A study of Mus musculus with 38 samples.

Results

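Of 270806 ATAC-seq peaks, open-chromatin regions cut by the Tn5 transposase, 8711 carried an annotation that starts with TTS, 3' UTR or non-coding in the authors' deposited table, and all of them are described here. TTS marks the stretch around an annotated transcript end, called transcript end peaks below, 3' UTR marks the untranslated stretch after the stop codon, and non-coding marks exons of transcripts without a coding frame. There were 4169 transcript end peaks, 3175 3' UTR peaks and 1367 non-coding peaks. The tissue was the cortical collecting duct (CCD), dissected by hand from kidneys of wild-type C57BL/6 mice. One group had been infused for 5 days with dDAVP (desmopressin), a vasopressin analog selective for the V2 receptor (3 ATAC-seq and 4 RNA-seq libraries), and the other with saline for 5 days (3 and 4 libraries). The study set out to describe vasopressin excess without a low blood sodium. The ATAC-seq reaction was run on 3 dissected segments at a time, and no label says which animal a library came from, so the p-values measure the spread between these libraries only. RNA levels from a separate table of wild-type units (WT), each the mean of 3 libraries, were used for genes outside the dDAVP table, as described where they appear. That table's libraries were all labelled dDAVP and C57BL/6, while its name says that no vasopressin was given.

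Vasopressin acts on the principal cells of the collecting duct, where the V2 receptor raises cyclic AMP, and protein kinase A then moves the water channel aquaporin-2 to the apical membrane and raises its gene's transcription. Acid-base transport in the same tubule is the work of the intercalated cells. A 3' UTR holds sites for RNA-binding proteins and microRNAs (miRNAs), and the transcript end is where the polymerase is released after cleavage and polyadenylation. Open chromatin at the end of a strongly transcribed gene can belong to that gene, to a neighbouring promoter or to an enhancer, and the annotation alone does not say which. Long non-coding RNAs such as Neat1, the scaffold of nuclear paraspeckles, and Malat1, a nuclear speckle RNA, are among the transcripts behind the non-coding class.

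The gene of a peak was taken from the transcript accession in its annotation, which matched the RefSeq gene table of GRCm38.p6 (the build mm10) for 8696 of 8711 peaks and 5401 genes. The deposited table names a second gene, that of the nearest transcript start. Both were the same gene in 43.7% of 3' UTR peaks, 49.6% of transcript end peaks and 72.3% of non-coding peaks. Of the 5401 genes, 3396 had 1 peak, 1218 had 2, and Neat1 with 25 and Kcnq1ot1 with 22 had the most.

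The sequences that bear on the strongest peaks are those of the miRNA genes and of promoters that a transcript end or non-coding peak runs into. Transcript end peaks included 210 at the ends of 165 miRNA genes. Of these 210 peaks, 27 (12.9%) were called lower with dDAVP and 0 higher. The share called lower was 8.20% among all transcript end peaks and 5.98% among all peaks. Of the 27 called peaks, 20 had a mean log2 ATAC-seq signal above 7, where 53.4% of all peaks were called lower. The mature miRNAs shown belong to strong peaks and to Mir10b, from RefSeq (GRCm38.p6), read 5′ to 3′ with the seed (bases 2 to 8) in capitals, since the seed sets which messages a miRNA binds:
mmu-miR-7671-3p: aAGCGGGCaggcggagaaccac
mmu-miR-5130: cUGGAGCGcgcgggcgaggcaggc
mmu-miR-5131: cGGCGCCCcacggagccccgagc
mmu-miR-1945: uCUUCGCGgguacugucgggac
mmu-miR-1941-5p: aGGGAGAUgcugguacagaggcuu
mmu-miR-375-5p: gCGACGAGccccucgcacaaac
mmu-miR-10b-5p: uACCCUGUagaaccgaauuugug
Of the 27 miRNA genes with a peak called lower, 26 were in that table with 37 mature forms and 37 different seeds, so no seed was shared among the listed forms. For Mir375 the 5p form was the only one listed, so the seed of its other arm is not shown.

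A transcript end or non-coding peak can also cover the start of another gene. Of the 8711 peaks, 311 held a start of the RefSeq promoter table, which covers 27025 of 49997 gene symbols. The 311 peaks lay over 372 promoter windows of 300 bases. The full cyclic AMP response element, TGACGTCA, the site of the CREB factors that protein kinase A activates, was in 9 of these windows (2.42%), against 588 of all 32851 windows of the same length (1.79%). Of the 311 peaks that held a start, 190 were called lower in the authors' deposited table, with or without the element. The element also lay upstream of the starts of Amn1, Hs3st3a1 and Zscan18, under peaks that were not called (adjusted p = 0.17, 0.072 and 0.42). The 3 peaks called lower in the authors' deposited table that held one upstream of a start are shown, with the element in capitals on the strand of the gene named:
Fbxw9 (chr8:85060020-85060049, plus strand, under a non-coding peak of A230103J11Rik): gtgttagtctcTGACGTCAtctaatgggcg
Trip6 (chr5:137314246-137314275, minus strand, under a transcript end peak of Slc12a9): ctggaatgtggTGACGTCAgggggcgtggt
Tmem183a (chr1:134362025-134362054, minus strand, under its own non-coding peak): gcgccgggtgaTGACGTCAccgggccccgg
The GC box GGGCGG, bound by SP and KLF factors, was in 62.4% of the windows under these peaks and in 35.7% of all windows. It is shown in capitals for 3 of the strongest peaks, where CCGCCC is the same box read on the other strand:
Nfe2l2 (chr2:75704732-75704761, minus strand): cctccccttgccCCGCCCtaggcctttgcg
4930526I15Rik (chr9:124423592-124423621, plus strand): gttcacgtgactCCGCCCatggtcggacag
Rogdi (chr16:5013604-5013633, minus strand, under a transcript end peak of Glyr1): tagccggcttgaGGGCGGagcttgtgccct
The GATA site AGATAA was in 4.84% of the windows under these peaks and 11.2% of all, the AP-1 site TGANTCA in 4.30% and 7.81%, and the CCAAT box in 33.9% and 37.4%. The polyadenylation signal AATAAA was in 15.9% and 19.6%, the TEAD site GGAATG in 11.8% and 14.7%, the grainyhead-like site AACCNGTT in 1.61% and 2.09%, and CAGGGGGC, a stretch of the CTCF motif, in 3.76% and 2.87%. Both strands were searched, and a match describes the letters only.

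Most of these peaks were weak and narrow, and the few strong ones were wide. Median width was 182 bases for transcript end peaks, 164 for 3' UTR peaks and 204 for non-coding peaks, against 177 for all peaks. The signal is the log2 mean normalised signal of a group, as the authors deposited it, with 0 as its floor and no value per library. Its median with dDAVP and in saline was 2.99 and 3.25 for transcript end peaks, 2.54 and 2.66 for 3' UTR peaks, and 3.17 and 3.53 for non-coding peaks. Among the 2139 peaks under 100 bases wide the median was 1.29 with dDAVP and 0.912 in saline. Among the 444 of at least 1000 bases it was 7.68 with dDAVP and 8.31 in saline. The signal was listed at 0 for 380 peaks with dDAVP and for 788 in saline.

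**Figure D1:**
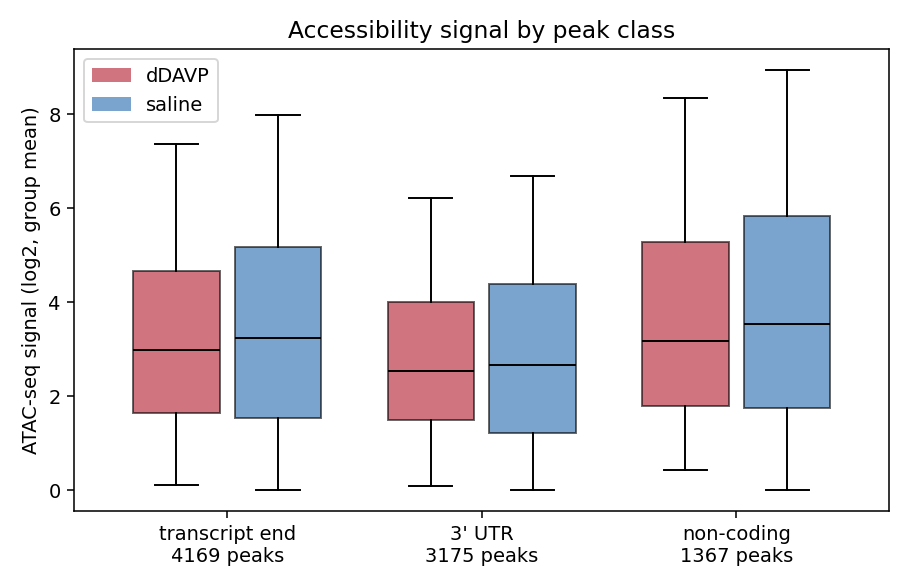
ATAC-seq signal (log2 group mean, y axis) of the 3 peak classes, with dDAVP on the left and saline on the right of each pair. Boxes span the quartiles with the median as a line, and whiskers run from the 5th to the 95th percentile of peaks. The non-coding class reaches highest, with medians of 3.17 with dDAVP and 3.53 in saline.

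Signal was lower with dDAVP in the strong peaks of every class. At an adjusted p under 0.05 in the authors' deposited table, 652 of the 8711 peaks were lower and 49 higher with dDAVP, or 7.48% and 0.563%. Over all peaks of that table, 5.98% were lower and 0.846% higher. By class, 342 transcript end peaks (8.20%), 131 3' UTR peaks (4.13%) and 179 non-coding peaks (13.1%) were lower, and 20, 21 and 8 were higher. The median log2 fold, dDAVP over saline, was −0.26, −0.13 and −0.35 for the 3 classes, −0.17 for all peaks and −0.48 for promoter peaks.

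The share called lower climbed with signal in every class from a mean signal of 3 upward. Below a mean signal of 1 the members had a median log2 fold of 0.67 and no called peak. Between 5 and 6 the median was −0.41 with 11.3% lower, and above 7 it was −0.50 with 55.7% lower, against −0.49 and 53.4% for all peaks of that strength. Set against the median of all peaks in the same band of signal, the median fold was −0.04 for transcript end peaks, −0.01 for 3' UTR peaks and −0.05 for non-coding peaks.

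**Figure D2:**
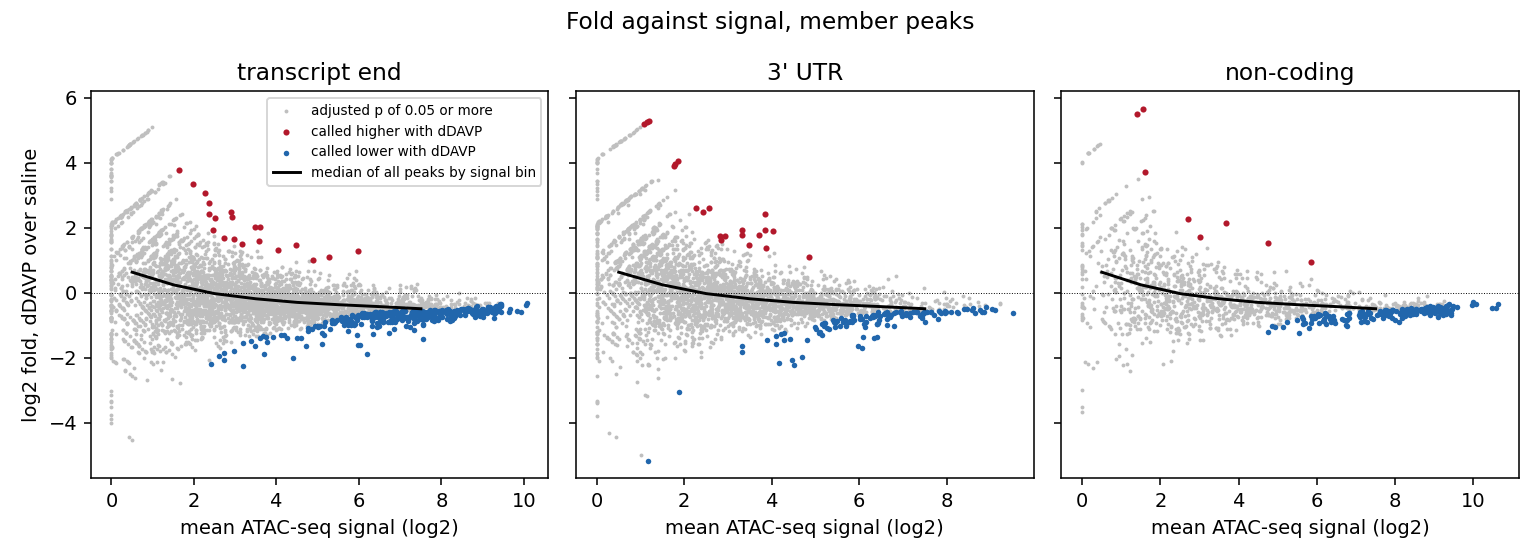
Log2 fold of dDAVP over saline (y axis) against mean log2 signal (x axis), 1 point a peak, for the 3 classes. Red and blue points were called higher and lower with dDAVP at an adjusted p under 0.05 in the authors' deposited table, and the black line is the median of all peaks by band of signal. Members above a mean signal of 7 had a median fold of −0.50, beside −0.49 for all peaks there, and some called losses lie well below the line, as at Actb (−1.41). Called gains lie at lower signal.

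A start lay inside most of the strong non-coding peaks and a smaller part of the strong transcript end peaks. Above a mean signal of 7, it lay inside 132 of 213 non-coding peaks and 104 of 367 transcript end peaks. At any signal, a start lay inside 136 transcript end peaks. Their median signal was 7.44 with dDAVP and 8.13 in saline, and 89 of them were lower and 0 higher. It lay inside 171 non-coding peaks, with medians of 7.77 and 8.44, of which 99 were lower and 0 higher. Above a mean signal of 7, 53.4% of all peaks and 65.5% of promoter peaks were called lower. Only 4 of the 3175 3' UTR peaks held one. Of the members more than 1000 bases from every start of the promoter table, 406 of 7775 (5.22%) were lower and 46 (0.592%) higher, and another 191 members lay on chromosomes without a start in that table. Farther than that distance, the share lower was 6.07% for transcript end peaks, 3.96% for 3' UTR peaks and 5.93% for non-coding peaks.

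Among the strongest non-coding peaks, that of BC031361 had a signal of 10.4 with dDAVP and 10.8 in saline (log2 fold −0.33), and that of 4930526I15Rik had 10.3 and 10.8 (−0.46). Nfe2l2, which encodes the oxidative stress factor NRF2, had 10.1 with dDAVP and 10.7 in saline at the start of a non-coding transcript of its locus (−0.47, adjusted p = 2.6e-11). Its RNA did not pass the test. The strongest transcript end peak, at Glyr1, also held the start of Rogdi and had 9.85 with dDAVP and 10.3 in saline. Bad, a pro-apoptotic member of the BCL-2 family, had 9.54 with dDAVP and 10.2 in saline (−0.57). The strongest 3' UTR peak was at Ccdc92b, with 9.10 with dDAVP and 9.84 in saline (−0.62, adjusted p = 2e-05). The next strongest, at Faim2 and Med9, had folds of −0.33 and −0.32 and adjusted p of 0.089 and 0.1.

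Of the 27 miRNA-end peaks above a mean signal of 7, 20 (74.1%) were called lower, beside 55.0% of all transcript end peaks above that signal and 53.4% of all peaks of the table above it. Mir7671 had 9.46 with dDAVP and 10.1 in saline (log2 fold −0.56, adjusted p = 3.3e-06), and Mir5130 had 9.25 and 9.94 (−0.58). Mir375, whose miRNA is known from pancreatic islets and neuroendocrine cells, had 8.92 with dDAVP and 9.61 in saline (−0.57, adjusted p = 0.00055). Mir10b, which lies in the HoxD cluster, had 6.04 with dDAVP and 6.88 in saline (−0.73, adjusted p = 0.0089). Folds of the 27 called peaks ran from −1.04 to −0.50, and 8 of these peaks held an annotated start. Of 196 peaks whose miRNA is in the RefSeq table, 34 overlapped a mature form. The miRNAs themselves were not measured, so a peak at the end of a miRNA gene says nothing of the miRNA's level.

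Several of the largest losses lay at the 3' ends of immediate early genes, which are switched on within minutes by growth factors, stress or cyclic AMP. The list of 18 such genes had 29 peaks of these classes at 12 genes, and 14 of the 29, at 6 genes, were lower and 0 higher in the authors' deposited table. That is 48.3% lower, beside 7.48% of all members and 5.98% of all peaks. Egr1 held 5 of the 14 and Fos 4, and peaks of the same gene are not replicates. The median log2 fold of the 29 peaks was −0.91, beside −0.23 for all 8711 members. It was −0.54 once the median of equally strong peaks was taken off. The list's 3' UTR peaks had a median of −1.32 (6 of 15 lower) and its transcript end peaks −0.69 (8 of 14 lower). Nr4a1, counted below, was in another list.

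Fos, which encodes a subunit of the AP-1 dimer, had 5 such peaks, and 4 were lower with dDAVP. Its 3' UTR peak at chr12:85476704-85476892 had a signal of 2.98 with dDAVP and 5.17 in saline (log2 fold −2.07, adjusted p = 0.001). Just past the transcript end, the peak at chr12:85477256-85477693 had 4.93 with dDAVP and 6.64 in saline (−1.60, adjusted p = 2.2e-06). The strongest Fos promoter peak had 6.70 with dDAVP and 7.42 in saline, a fold of −0.61.

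Egr1, a zinc finger factor induced by the same signals, had 6 such peaks on chromosome 18, and 5 were lower. The 3' UTR peak of the largest loss had 2.90 with dDAVP and 5.26 in saline (log2 fold −2.23, adjusted p = 0.00017), and the transcript end peak of highest signal had 6.56 and 7.83 (−1.15). The Egr1 promoter peak was far stronger, at 10.3 with dDAVP and 10.9 in saline, and its fold was −0.49. Within this gene the fold of the 5 called 3' end peaks was larger in size than that of the promoter peak. The remaining transcript end peak, which was not called, had a smaller one (−0.26).

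Nr4a1, an orphan nuclear receptor and a known cyclic AMP target, was lower at all 3 of its peaks. Its 3' UTR peak had 4.89 with dDAVP and 6.70 in saline (log2 fold −1.69, adjusted p = 3.3e-07), and a transcript end peak had 2.96 and 5.10 (−2.01). Fosb, another AP-1 subunit, had 5.83 with dDAVP and 6.86 in saline in its 3' UTR (−0.91). Zfp36, which binds AU-rich elements and speeds message decay, had 4.28 with dDAVP and 5.62 in saline at its weaker transcript end peak (−1.22) and 7.97 and 8.70 at the stronger (−0.62). Junb had 9.04 with dDAVP and 9.56 in saline at its transcript end (−0.40, adjusted p = 0.017). Ier2 was lower at 1 of 3 peaks, with 6.10 and 6.94 (−0.73). The single 3' UTR peak of Jun had 6.27 with dDAVP and 6.87 in saline and an adjusted p of 0.1, and none of 4 peaks of Klf6, a Krüppel-like factor, passed.

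**Figure D3:**
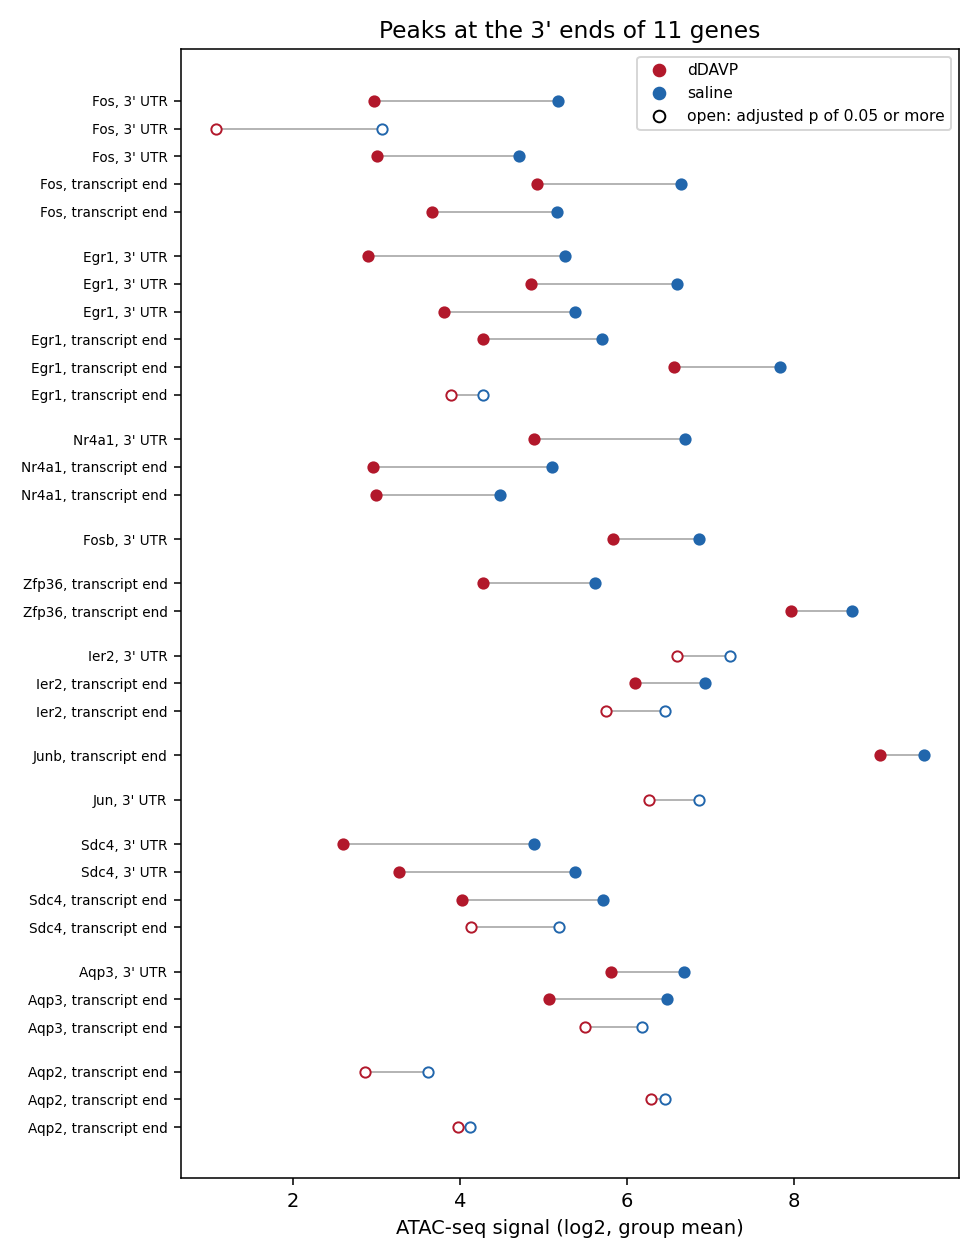
ATAC-seq signal (log2 group mean, x axis) of each transcript end and 3' UTR peak of 11 genes, with dDAVP in red, saline in blue and a line joining both values of a peak. Open circles have an adjusted p of 0.05 or more in the authors' deposited table. Every peak of Fos, Egr1, Nr4a1 and Sdc4 shown has its red point left of its blue point, with the largest loss at Egr1 (log2 fold −2.23).

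Losses of like size were found at genes outside that list. In all, 90 members at 76 genes were called lower with a log2 fold of −1 or beyond. These 90 comprised 49 transcript end, 34 3' UTR and 7 non-coding peaks. Of them, 82 were more than 1000 bases from every start of the promoter table. That table covers 27025 of 49997 gene symbols, so a start that it lacks can lie nearer. Sdc4, which encodes the heparan sulfate proteoglycan syndecan-4, was lower at 3 of 4 peaks, with 2.61 with dDAVP and 4.89 in saline at one 3' UTR peak (−2.15, adjusted p = 0.00087). The transcript end of Actb, β-actin, had 6.60 with dDAVP and 8.12 in saline (−1.41, adjusted p = 1.1e-06). That of Nr1d1, which encodes the clock repressor REV-ERBα, had 5.88 and 7.25 (−1.25). Ends that face another gene were among the largest: Rabepk, where the nearest start in the deposited table is that of the chaperone gene Hspa5, had 1.55 with dDAVP and 3.95 in saline (−2.24, adjusted p = 0.0024). Mrnip, beside Sqstm1, had 0.779 with dDAVP and 3.16 in saline (−2.18, adjusted p = 0.041). Adgrg1, an adhesion G protein-coupled receptor gene, had 1.22 and 3.46 at its transcript end (−2.08), and Sgsm1 had 2.02 and 3.98 in its 3' UTR (−1.81).

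The RNA of the immediate early genes did not pass the test when all libraries were used. RNA was compared by limma on log2(TPM + 1) over 5035 genes, where TPM is a length-scaled share of all transcripts, and 0.556% of genes were higher and 0.139% lower with dDAVP at an adjusted p under 0.05. Of the 12 immediate early genes in the RNA table, 0 passed, and 10 had a lower mean log2 level with dDAVP. Fos had 151.9, 1715, 96.75 and 60.03 TPM with dDAVP, against 643.3, 2001, 937.6 and 2076 TPM in saline (log2 fold −2.66 ± 0.85 SE, n = 4 each, limma adjusted p = 0.26). The dDAVP libraries 1, 3 and 4 lay below every saline library for Fos, and dDAVP library 2 lay among them.

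Egr1 had 99.03, 1833, 62.41 and 36.39 TPM with dDAVP, against 343.6, 2128, 492.1 and 1269 TPM in saline (−2.51 ± 1.02 SE, limma adjusted p = 0.398). Junb had 233.9, 1159, 158.1 and 98.55 TPM with dDAVP, against 929.7, 2274, 1074 and 2434 TPM in saline (−2.58 ± 0.63 SE, limma adjusted p = 0.11). The same single dDAVP library was high for both genes. Summed over the 12 genes, the level was 9381 TPM in dDAVP library 2 and ran from 995.4 to 1638 TPM in dDAVP libraries 1, 3 and 4. In saline it ran from 3677 to 13060 TPM. Without dDAVP library 2, limma called Fos (−3.70, adjusted p = 0.005), Junb (−3.31), Egr1 (−3.73), Zfp36 (−3.36), Ier2 (−2.58) and Jun (−2.96) lower, where 0.199% of all genes were lower. Saline library 2 and the other saline libraries stayed in that fit. The library left out was the one high for these genes, and none of the 6 passed in any other alternative run. That fit is therefore not independent evidence of a loss. Nr4a1 had 31.0, 1147, 14.79 and 28.62 TPM with dDAVP, against 11.27, 1232, 12.78 and 153.6 TPM in saline. Its RNA overlapped between groups although all 3 of its peaks were lower. The ATAC-seq table gives no value per library, so whether 1 ATAC-seq library carries these losses was not tested. In bulk tissue, fewer cells of a type and less RNA per cell cannot be told apart.

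**Figure D4:**
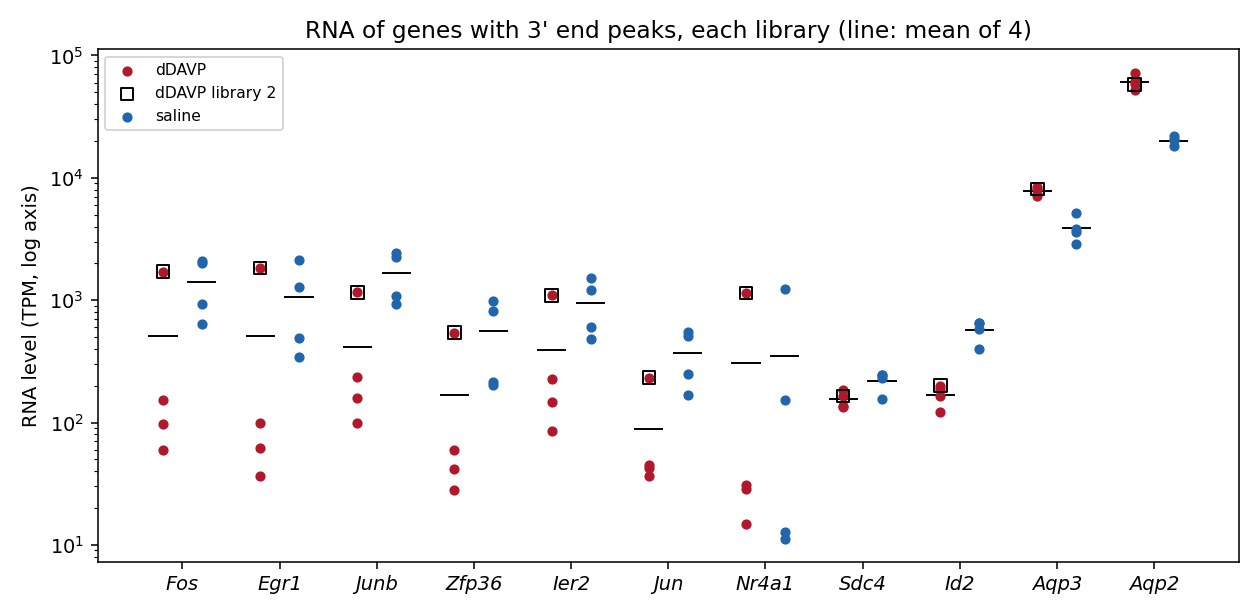
RNA level (TPM, log axis) of 11 genes with 3' end peaks in each library, dDAVP on the left and saline on the right of each pair, with a line at the mean of 4 libraries and a square around dDAVP library 2. That library stands with saline for Fos (1715 TPM) and Egr1 (1833 TPM), whereas for Aqp2, Aqp3 and Id2 the groups do not overlap.

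RNA of other genes with large 3' end losses did not pass the test either. Sdc4 had 137.5, 164.2, 183.6 and 134.0 TPM with dDAVP, against 155.5, 230.4, 243.2 and 243.5 TPM in saline (log2 fold −0.48 ± 0.20 SE, limma adjusted p = 0.41). The groups overlapped. Adm, which encodes the vasodilator adrenomedullin, was lower at 2 of 3 peaks, with 4.55 with dDAVP and 5.74 in saline in its 3' UTR (−1.07). Its RNA had 12.55, 65.47, 35.28 and 13.41 TPM with dDAVP, against 101.3, 418.3, 54.2 and 447.6 TPM in saline (−2.78 ± 0.71 SE, limma adjusted p = 0.137), with 1 dDAVP library above the lowest saline one. Over the 33 measured genes with a transcript end or 3' UTR peak lower by 1 or more, the median RNA log2 fold was −0.28 and 23 were below 0. Over the 145 genes with a smaller called loss it was −0.12, and over all 5035 genes it was −0.06 with 56.4% below 0.

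Genes whose RNA passed the test were not, as a group, marked by a matching change at their 3' ends. Of the 1428 measured genes with a member peak, 18 passed (1.26%, beside 0.695% of all genes), 12 higher and 6 lower with dDAVP. Aqp2, Id2 and Niban1 passed in all alternatives run, and each of the other 15 was lost in at least 1 of them. The 12 genes of higher RNA had 24 peaks, of which 1 was higher and 2 were lower, with a median log2 fold of −0.01. The 6 genes of lower RNA had 12 peaks, of which 0 were higher and 3 lower, with a median of −0.53. Set against equally strong peaks, the medians were 0.03 for the genes of higher RNA and −0.14 for those of lower RNA. Of all members 7.48% were lower, and of all peaks 5.98%.

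Aqp2, the vasopressin-regulated water channel, had 51774, 58027, 72251 and 61434 TPM with dDAVP, against 20212, 21874, 20524 and 18074 TPM in saline (log2 fold 1.59 ± 0.18 SE, limma adjusted p = 0.0028). None of its 3 transcript end peaks was called. The strongest had a signal of 6.30 with dDAVP and 6.46 in saline (−0.05). Aqp3, the basolateral water channel of the same cells, went the other way in chromatin. Its RNA had 7310, 8123, 8381 and 7116 TPM with dDAVP, against 3602, 3793, 2900 and 5205 TPM in saline (1.03 ± 0.18 SE, limma adjusted p = 0.024). Its transcript end peak at chr4:41092113-41092408 had 5.06 with dDAVP and 6.48 in saline (−1.30, adjusted p = 5.8e-05), and its 3' UTR peak had 5.82 and 6.68 (−0.75). The Aqp3 promoter peak was lower too, at 8.53 with dDAVP and 9.33 in saline (−0.69).

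Btc, which encodes the EGF receptor ligand betacellulin, was the gene with a called gain in both readouts. Its RNA had 293.9, 274.15, 316.8 and 259.0 TPM with dDAVP, against 65.15, 50.67, 101.1 and 121.2 TPM in saline (log2 fold 1.82 ± 0.26 SE, limma adjusted p = 0.011). Its narrow 3' UTR peak had 2.70 with dDAVP and was listed at 0 in saline (adjusted p = 0.021), while its promoter peak had 3.39 and 4.23 and did not pass. Niban1, with RNA higher by 2.45 ± 0.28 SE on the log2 scale, had 2.89 with dDAVP and 4.24 in saline at its transcript end (adjusted p = 0.077). Cdk18, a cyclin-dependent kinase, rose by 2.35 ± 0.29 SE in RNA, and its 5 peaks had adjusted p from 0.053 to 0.99.

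Id2, an inhibitor of helix-loop-helix factors, was lower in both readouts. Its RNA had 186.4, 200.03, 122.7 and 163.4 TPM with dDAVP, against 580.5, 648.1, 400.0 and 648.9 TPM in saline (log2 fold −1.75 ± 0.21 SE, limma adjusted p = 0.0032), and its main transcript end peak had a signal of 8.86 with dDAVP and 9.60 in saline (−0.62). Its promoter peak changed by −0.46, beside a median of −0.50 for promoter peaks above a mean signal of 7. Tmem52b, a transmembrane protein gene, had 5.94 with dDAVP and 6.74 in saline at its main 3' UTR peak (−0.68, adjusted p = 0.018), and its RNA fell by 1.61 ± 0.28 SE. Slc16a5, a monocarboxylate transporter family gene, had 7.59 and 8.30 in its 3' UTR (−0.60), and its RNA fell by 1.40 ± 0.23 SE. Strong peaks were lower over the whole table. Above a mean signal of 7, where these Id2 and Slc16a5 peaks lay, all peaks had a median fold of −0.49 and 53.4% were lower. Between 6 and 7, where that of Tmem52b lay, the values were −0.42 and 25.8%. Scnn1a, an ENaC sodium channel subunit gene, fell by 1.03 ± 0.17 SE in RNA, and none of its 3 peaks was called.

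Across genes, peak signal at the 3' end followed the RNA level weakly. With 1 peak a gene, Spearman's rho between saline signal and saline RNA was 0.16 for 971 genes with a transcript end peak, 0.0888 for 574 genes with a 3' UTR peak and −0.0639 for 118 genes with a non-coding peak. Genes are not independent replicates and the points share their libraries, so these values are descriptions. The RNA table holds only genes above 10 TPM in every library. Over the wider WT table, rho was 0.127 for 3135 genes, 0.0934 for 2066 and 0.335 for 842. The log2 fold of the peak and of the RNA had a rho of 0.0264, 0.0204 and 0.0883.

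Whether a protein-coding gene had a peak at its end varied more with its RNA level in that WT table. A transcript end peak was present at 265 of 4695 genes below 0.1 TPM (5.64%) and at 197 of 809 genes above 200 TPM (24.4%), with a steady climb between. A 3' UTR peak was present at 3.13% of genes below 0.1 TPM, 14.1% of those between 10 and 50 TPM and 12.2% of those above 200 TPM. The share of these peaks called lower with dDAVP was 7.17% for transcript end peaks and 4.08% for 3' UTR peaks below 0.1 TPM, and 17.8% and 15.2% above 200 TPM. Signal climbed with RNA level too, and set against equally strong peaks the median fold above 200 TPM was −0.06 for transcript end peaks and −0.13 for 3' UTR peaks.

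A gene's strongest 3' end peak was weaker than its strongest promoter peak and had the smaller fold. Over 2864 protein-coding genes with both, the 3' end had a median signal of 3.56 with dDAVP and 3.90 in saline, and the promoter had 6.62 and 7.27. The median log2 fold was −0.24 at the 3' end and −0.50 at the promoter, and 917 genes had the lower fold at the 3' end. Over all peaks the median fold was −0.18 at a mean signal of 3 to 4, −0.42 at 6 to 7 and −0.49 above 7. The 3' end and promoter peaks were not matched for signal, so position and signal cannot be told apart here. Of 364 genes whose 3' end peak was called lower, 261 had a promoter peak, and 126 of those promoter peaks (48.3%) were called lower too, beside 1153 of the 2864 promoter peaks (40.3%). Of the transcript end peaks with a known strand, 84.1% had their centre past the annotated gene end, and these lay a median of 547 bases past it.

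The 49 peaks called higher were 74 to 1221 bases wide, with a median of 295 bases, and lay at 47 genes. The RNA table held 10 of these genes, of which 1, Btc, passed the test. Of the 49 peaks, 12 were listed at 0 in saline. The largest gain above the floor was at the transcript end of Umod, the uromodulin gene that marks the thick ascending limb, with 3.17 with dDAVP and 0.403 in saline (log2 fold 2.76, adjusted p = 0.012). Its 3' UTR peak had 1.79 with dDAVP and 2.03 in saline, and its RNA had 5253, 20.95, 100.1 and 82.89 TPM with dDAVP, against 824.9, 177.3, 84.13 and 173.2 TPM in saline. Other members of the thick ascending limb list with a peak, Cldn10 and Slc12a1, had 3 of 4 peaks listed at 0 in saline and none called. The list's summed RNA, over 2 of 6 markers, was 205.1 to 5446 TPM with dDAVP and 226.5 to 950.9 TPM in saline, and Slc12a1, Cldn16, Cldn10 and Egf were not in the RNA table. The part of that neighbouring segment in the Umod gain was not tested.

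Other gains lay at the ends of Gna12, a G protein α subunit (3.65 with dDAVP and 1.39 in saline, log2 fold 2.32), Fkbp4, a heat shock protein 90 co-chaperone (3.25 and 0.981, 2.31), and the long non-coding RNA gene 2410012E07Rik (3.67 and 1.23, 2.49). In 3' UTRs they included Natd1 (3.04 with dDAVP and 0.42 in saline), Lrit3 (3.34 and 0.759), Actbl2 (3.19 and 0.725), Ttc39b (4.58 and 2.24, adjusted p = 0.00016) and Fam135a (4.50 and 2.65). The strongest peak that gained was at the transcript end of Foxp1, a forkhead factor gene, 1221 bases wide, with 6.44 with dDAVP and 5.27 in saline (1.28, adjusted p = 2.6e-05). Faah, the anandamide hydrolase gene, split by position. Its transcript end peak had 4.27 with dDAVP and 2.32 in saline (2.03), and its non-coding peak, over a start, had 7.93 and 8.59 (−0.54). Among non-coding peaks, gains were called at 4930428D20Rik (2.27), Ppp1r9a (2.15), Vac14 (1.72), Pisd-ps3 on an unplaced contig (1.53) and Gm1600 (0.95). Pisd-ps3 is a pseudogene, and reads that fit its parent gene as well cannot be told apart here.

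Some called peaks were listed at 0, the floor of the group mean, in 1 of the groups. The 3' UTR of Slc26a1, an anion exchanger gene, was listed at 0 with dDAVP and had 2.75 in saline (adjusted p = 0.035), and that of Sik1, the cyclic AMP-induced salt-inducible kinase, was listed at 0 and had 2.18 (adjusted p = 0.046). The 3' UTR of Adam22 had 2.78 with dDAVP and was listed at 0 in saline (adjusted p = 0.0082), as was the non-coding peak of 1700021N21Rik with 2.56. Of the 26 genes of the cyclic AMP list, 15 had 25 peaks of these classes, and 5 were lower (Nr4a1 with 3, Per1 and Sik1) and 0 higher. That is 20.0% lower, beside 7.48% of all members and 5.98% of all peaks. The list's median log2 fold was −0.30.

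Neat1 lost signal along the part nearest its start. Its gene spans chr19:5824708-5845480, and the table's own promoter peak marks the high coordinate as the start. Of its 25 peaks, 7 were lower and 0 higher. The peak nearest the start among them, 3.03 kb in, had 5.07 with dDAVP and 6.27 in saline (log2 fold −1.08, adjusted p = 0.0015), and one at 4.75 kb had 6.08 and 7.19 (−0.99). At 15.5 kb the values were 5.35 with dDAVP and 5.28 in saline (0.19). Split at 9 kb, a point chosen after the values were seen, the 11 nearer peaks had a median fold of −0.80 and the 14 farther ones −0.15 with 0 called. Neat1 RNA had 270.6, 198.7, 69.46 and 89.72 TPM with dDAVP, against 274.4, 315.6, 77.89 and 138.3 TPM in saline (−0.37 ± 0.50 SE, limma adjusted p = 0.83), and the groups overlapped.

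Malat1, the next gene on that chromosome, was lower at its transcript end, with 7.36 with dDAVP and 8.31 in saline (log2 fold −0.83, adjusted p = 0.0016), and at 1 of 3 non-coding peaks (5.00 and 6.08, −0.96). Mascrna, the small RNA cut from the end of the Malat1 transcript, had 4.31 with dDAVP and 5.45 in saline (−1.02, adjusted p = 0.04). Malat1 RNA had 9394, 11918, 9523 and 8563 TPM with dDAVP, against 8140, 9166, 4820 and 15719 TPM in saline, and the groups overlapped. Kcnq1ot1, the imprinted antisense transcript at Kcnq1, had 22 peaks, of which 0 were called. Their median fold was 0.25, and their signals ran from 0.253 to 3.98 with dDAVP and from 0 to 4.34 in saline. In the WT table Kcnq1ot1 had 0.878 ± 0.126 TPM (SD, n = 4 units) and Neat1 463.9 ± 170.1 TPM.

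**Figure D5:**
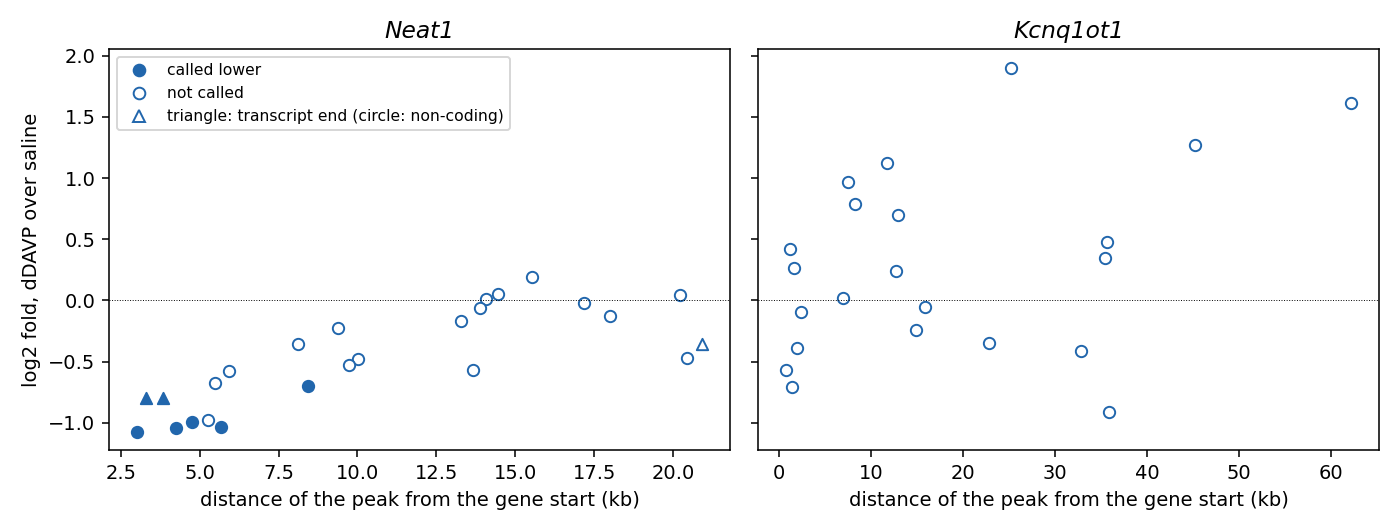
Log2 fold of dDAVP over saline (y axis) of each peak of Neat1 (left) and Kcnq1ot1 (right) against its distance from the gene start in kb (x axis). Filled symbols were called lower in the authors' deposited table, circles are non-coding and triangles transcript end peaks. The 7 called Neat1 peaks all lie within 9 kb of the start, and no Kcnq1ot1 peak is filled.

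The list of 39 non-coding RNAs had 62 peaks at 11 genes, of which 11 (17.7%) were lower and 0 higher, beside 13.1% lower among all non-coding peaks and 5.98% among all peaks of the table. Neat1 held 7 of the 11. The median log2 fold was −0.35, or −0.06 set against equally strong peaks. Beside Neat1 and Malat1, the called ones were at Epb41l4aos (7.64 with dDAVP and 8.30 in saline) and at Terc, the telomerase RNA gene (6.68 and 7.48, −0.68). The non-coding losses of largest fold were at BB283400 (4.73 with dDAVP and 6.07 in saline, −1.22) and 3930402G23Rik (3.93 and 5.26, −1.21). Of the 20 genes of RNA 3' end processing and decay, 3 had a peak and 0 were called.

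Principal cell genes had 39 peaks at 13 genes, of which 2 (5.13%), both at Aqp3, were lower and 0 higher, with a median log2 fold of −0.42. Intercalated cell genes had 25 peaks at 14 genes, of which 1 (4.0%) was lower and 0 higher, with a median of −0.35. Both shares were near the 5.98% of all peaks. The called one was the transcript end of Rhbg, an ammonium transporter, with 5.78 with dDAVP and 6.53 in saline (−0.64, adjusted p = 0.036). Markers of the labelled tissue were present. Principal cell genes summed to 73841 to 97626 TPM with dDAVP and 35037 to 40425 TPM in saline, with 19 of 21 in the RNA table. Without Aqp2, the most abundant of them, a sum added after seeing the data, they summed to 22067 to 25375 TPM with dDAVP and 14513 to 22351 TPM in saline, and the median RNA log2 fold of the 19 was 0.02, with 8 below 0. Intercalated cell genes summed to 13974 to 17932 TPM with dDAVP and 12110 to 15310 TPM in saline, with 19 of 20 listed. Likewise without Car15, a carbonic anhydrase gene and the most abundant of these, they summed to 7281 to 9240 TPM with dDAVP and 10679 to 13860 TPM in saline, and the median RNA log2 fold of the 19 was −0.60, with 16 below 0. Proximal tubule genes had 0 such peaks, and 4 of the 9 were listed in RNA, from 1075 to 10292 TPM with dDAVP and 498.4 to 9159 TPM in saline.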

How the data were processed

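ATAC-seq and RNA-seq had been made from dissected CCD. Per the submitters' processing notes, STAR and RSEM served RNA-seq, cutadapt 3.4, Bowtie2, MACS2 and DiffBind were named for other steps, and the build was mm10; settings were not given in the sources used here. The ATAC-seq table deposited by the authors gives log2 group means, a log2 fold, unadjusted and adjusted p-values and the width and annotation of each peak, with no library values and depth unknown, so no test was added. The fold exceeded the difference of the group means by a median of 0.115. RNA values are TPM deposited by the authors, per the file headers for genes above 10 TPM in every library, and TPM keeps no depth.

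RNA was tested with limma 3.58.1 (R 4.3.3, trend, pseudocount 1, two-sided, Benjamini-Hochberg) over all 5035 genes, with 4 dDAVP and 4 saline libraries, after a trial on simulated data. TPM summed to between 895155 and 925759 per library, and the median correlation with the rest was 0.863 and 0.839 for saline libraries 3 and 4, against 0.913 or more elsewhere. Gene symbols were matched to RefSeq symbols and to single synonyms, which placed 1431 of 5401 genes in the dDAVP RNA table and 5299 in the WT table. Another 20 columns of values per library were not used. Named peaks were, in each class and above the floor, the 5 largest called gains and losses and the 5 of highest signal, the strongest peak listed at 0 in either group, peaks of genes past the RNA threshold, called peaks of the gene lists and peaks of listed non-coding RNAs. Actb, Nr1d1, Adm, Foxp1, Faah, Mknk2, Faf2, Wipf2, Rnu3a, Rnu11, the promoter windows shown and the miRNA genes beyond this rule were chosen after their values were seen. The motif search had been planned for peak centres and was run on RefSeq promoter windows, because no genome sequence was used here. The members and lists were chosen with earlier results of these data known.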

Additional observations from a re-analysis of the deposited data

Results flagged for a closer look

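In 70 groups of 4 RNA-seq libraries, 2 for each of 35 genes, the library farthest from the rest was compared with the group's range. In 14 groups its gap to its neighbour was above Dixon's critical value. For independent groups of normally distributed values, chance gives such a gap in about 1 of 20. These groups share their libraries and hold TPM without a log scale, so that rate does not apply to the 14. Library 2 of the dDAVP group was highest for Nr4a1 (gap 0.986 of the range), Egr1 (0.965), Jun (0.957), Fos (0.945), Zfp36 (0.94), Junb (0.872) and Ier2 (0.859). Library 1 was highest for Umod in the dDAVP group (0.985, with 5253 TPM) and in the saline group (0.874, with 824.9 TPM). Saline library 2 was highest for Nr4a1 (0.883), and saline library 4 for Adgrg1 (0.921). Values stood low in dDAVP library 3 for Cdk18 (0.895), saline library 3 for Ckmt1 (0.844) and saline library 1 for Sdc4 (0.851). The cause was not tested.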

How the results depend on the processing

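Of the 35 genes that limma called in RNA, 18 had a peak of these classes. In place of the 35 genes called in all, with or without a peak, limma called 18 for eBayes without a trend, 8 with the replicate number as a block and 7 to 47 when a library was left out, with 16, 23, 7 and 19 without dDAVP libraries 1 to 4 and 18, 17, 38 and 47 without saline libraries 1 to 4. Same-numbered libraries correlated at 0.19, 0.23, 0.0873 and −0.149 after the group means were removed. These values cannot decide whether the numbers pair the libraries, and the labels state no pairing. Aqp2, Id2 and Niban1 passed under every alternative run, and without dDAVP library 2 another 6 genes with peaks passed while 9 of the 18 did not. No called gene changed sign. Of the 652 peaks called lower, 309 had an adjusted p under 0.01 and 90 a fold of 1 or more in size. Of the same 652, 406 lay over 1 kb from every start of the promoter table. Of the 49 called higher, 20 had an adjusted p under 0.01 and 22 a mean signal of 3 or more. Median folds for transcript end, 3' UTR and non-coding peaks were −0.40, −0.34 and −0.46 at a mean signal of 3 or more, −0.0858, 0.0441 and −0.172 once centred on all peaks, −0.0416, −0.0099 and −0.0485 once centred on peaks of equal signal, and −0.37, −0.24 and −0.45 as the difference of the group signals. For non-coding peaks the median fold was −0.24 beyond 1 kb from every start of the promoter table. The rho of non-coding peaks with RNA level was −0.0639 in saline libraries and 0.335 over the WT table. The gene named for the nearest start, an alternative chosen after seeing the data, moved no fold correlation by 0.1. Depth was unknown, so counting error was not given.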

Other observations

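Several genes outside the lists were lower at more than 1 peak of these classes in the authors' deposited table. Mknk2, a kinase that phosphorylates the cap-binding factor eIF4E, was lower at all 4 of its peaks, with 7.83 with dDAVP and 8.63 in saline at the strongest (log2 fold −0.69). Faf2, a factor of endoplasmic reticulum quality control, was lower at 3 of 7, with 5.99 with dDAVP and 7.09 in saline at one (−0.99). Wipf2, an actin regulator, was lower at 3 of 6, with 6.68 and 7.53 at the strongest (−0.74). Small RNA genes followed the same direction at the transcript ends of Rnu3a (6.59 with dDAVP and 7.41 in saline, −0.71, adjusted p = 0.0076) and Rnu11 (6.30 and 7.08, −0.67, adjusted p = 0.014). Of 11 transcript end peaks at genes that RefSeq types as snoRNA, 0 were called. Rnu3a did not carry that type and was not among the 11.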
